A study of Danio rerio with 96 samples.

Results

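The genes described here are zebrafish genes of DNA replication, its regulation and its nucleotide supply, together with *cdca7a* and *cdca7b*. They were chosen by name from a list of 49 gene symbols, matched in any letter case to the Ensembl names of the genes in a count table. Of these symbols, 48 had a gene ID, and *ticrr* had none among the names used here. The 48 symbols gave 50 IDs of 25907 genes in the table, because *mcm6* and *rrm2* each stood for 2 IDs, and *cdca7a* was taken from the ID that carries the shared name CDCA7 without a copy letter. Counts were high enough to test 49 of the 50 IDs. The other, *mcm6* ENSDARG00000033231, did not exceed 2.53 counts-per-million (CPM) in any library, and *mcm6* below means ENSDARG00000057683. Reads of IDs that share a name may have been split between them, so values of *mcm6* and *rrm2* are uncertain for either ID.

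RNA was sequenced from whole single animals in 4 treatment groups, with 6 libraries per group at each of 36, 37, 60 and 84 h post-fertilization (hpf). FA+XR animals received 200 µM folic acid (FA) from 35 hpf and 8 Gy of X-rays at 36 hpf, XR animals X-rays with vehicle, FA animals folic acid without X-rays, and Cont animals vehicle without X-rays. All 4 groups carried *slc45a2* b4/b4, an albino genotype, so no pigmented strain was measured. Each group was kept in a well of its own, so a treatment and its well cannot be told apart, and whether the 36 hpf animals of the irradiated groups were taken before or after exposure was not given in the sources used here.

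Library totals ran between 243126 and 16470291 counts, with a median of 3477936, and 13 of the 96 libraries held less than 50% of that median. Levels are given as CPM of the library total. Whether reads cover whole transcripts was not given in the sources used here, so levels are compared between groups for a gene and not between genes. Fold changes come from edgeR with TMM scaling and can differ from the ratio of the CPM medians, and a gene was called at a false discovery rate of 10% over all genes tested. The p-values measure the spread between these libraries, which come from separate animals of 1 well. In whole animals, fewer cells of a type and less RNA per cell cannot be told apart. The summed level of 13 p53 target IDs separated irradiated from unirradiated libraries at every time after exposure, at 1005 to 1138 CPM in the irradiated and 612 to 760 CPM in the unirradiated libraries at 37 hpf. The IDs that weigh most in this sum are *ccng1* and *rps27l*, with medians of 488 and 140 CPM over all libraries. At 60 hpf, 4 libraries stood apart, 3 of FA and 1 of FA+XR. In these, the summed level of 9 neuron marker IDs was below 50% of the median of that time point, and values at 60 hpf that change without them are given where they bear on a call named here.

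Replication starts at origins bound by the origin recognition complex, where Cdc6 and Cdt1 load the MCM helicase and geminin holds Cdt1 back from loading it again. Cdc45, the GINS complex and Mcm10 activate the helicase, polymerases copy the strands behind it, and the sliding clamp PCNA, its loader RFC, the single-strand binding complex RPA and the enzymes of the lagging strand complete the work, on nucleotides made by ribonucleotide reductase and thymidylate synthase. Most of these genes are transcribed mainly in dividing cells, around the entry into S phase, and their RNA becomes scarcer in tissues as cells leave the cell cycle.

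At 37 hpf, 1 h after exposure, *cdca7a* was the member that fell in irradiated animals. The gene encodes a zinc-finger protein that in mammals works with the remodeller HELLS in keeping DNA methylation, and CDCA7 is a known target of Myc and E2F factors in mammalian cells. In FA+XR libraries *cdca7a* was measured at 4.11, 14.7, 16.4, 18.6, 18.6 and 22.7 CPM, against a range of 36.0 to 46.1 CPM and a median of 40.4 CPM in FA libraries. In XR libraries it was measured at 9.05, 9.83, 15.4, 17.7, 18.7 and 22.3 CPM, against 21.02, 29.3, 32.7, 39.99, 43.4 and 56.4 CPM in Cont libraries. The FA+XR and FA ranges did not overlap. The XR and Cont ranges overlapped at a single Cont library, and all 6 XR libraries lay below the Cont median of 36.4 CPM. Of the 12 irradiated libraries, 10 lay below every unirradiated library. The lowest of them, at 4.11 CPM in FA+XR, was the library with the smallest total, 243126 counts, so its value rests on few reads.

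The log2 fold change of *cdca7a* at 37 hpf was -1.28 (SE 0.25) for FA+XR vs. FA, with an edgeR adjusted p of 0.0140. For XR vs. Cont it was -1.21 (SE 0.26, edgeR adjusted p = 0.0337), and for all irradiated against all unirradiated libraries it was -1.24 (SE 0.18, edgeR adjusted p = 2.61e-05). Two-sided exact permutation tests on log2 CPM gave p = 0.00216 for FA+XR vs. FA, the smallest value that 6 against 6 libraries allow, and p = 0.00433 for XR vs. Cont. With each of the 24 libraries of 37 hpf left out in turn, FA+XR vs. FA and the pooled comparison kept the call in 24 of 24 fits. The XR vs. Cont call was kept in 18 of 24 fits and was lost when 1 of 3 Cont or 1 of 3 XR libraries was left out, where the adjusted p reached 0.201 at the most and the log2 fold change stayed between -1.36 and -1.09. FA+XR vs. Cont, which shares its Cont libraries with XR vs. Cont, gave -1.07 (SE 0.25) with an edgeR adjusted p of 0.104, outside the threshold. In FA+XR vs. Cont edgeR called 0 of 49 members at 36, 37, 60 and 84 hpf, where 0.0553%, 0.0974%, 0.276% and 1.92% of all genes were called, with 3, 2, 0 and 2 members at an unadjusted p below 0.05. DESeq2 called 1 member at each of 37 and 84 hpf.

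Among the 49 members tested, 1 was called in each of FA+XR vs. FA, XR vs. Cont and the pooled comparison at 37 hpf, where 0.118%, 0.104% and 0.25% of all genes tested were called. That member was *cdca7a* each time. Its paralog *cdca7b* had medians of 30.4 CPM in FA+XR, 28.9 CPM in XR, 32.4 CPM in FA and 33.4 CPM in Cont libraries, with overlapping ranges. Its pooled log2 fold change was -0.24 (SE 0.14, edgeR adjusted p = 0.999).

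**Figure D1:**
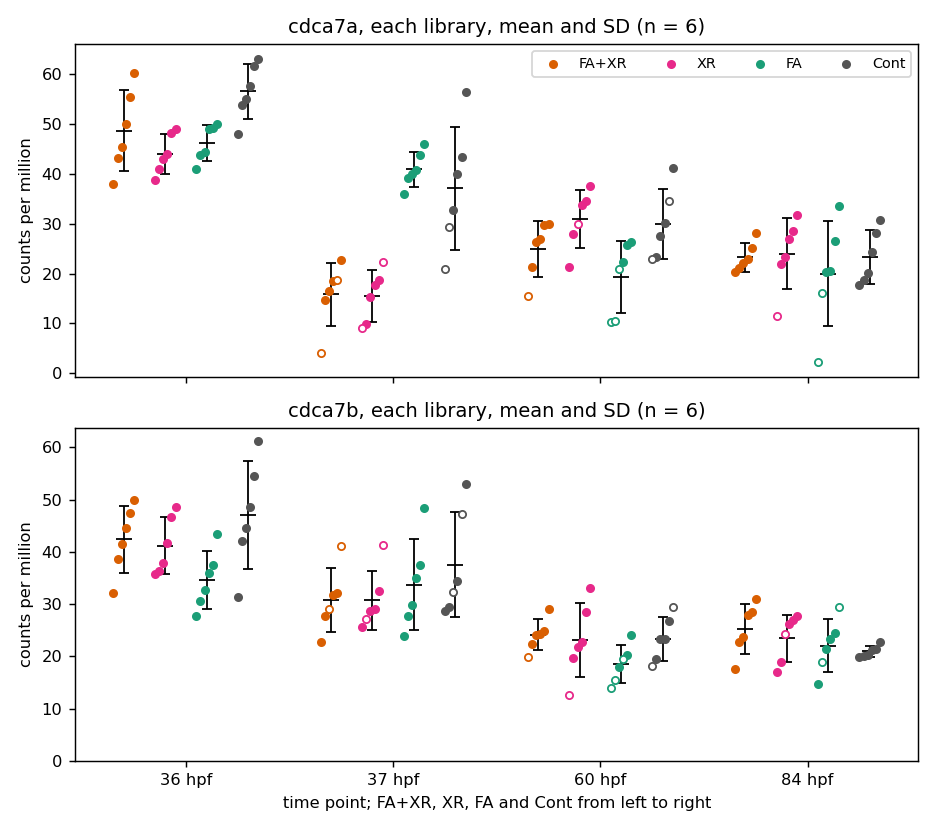
Levels of *cdca7a* (upper panel) and *cdca7b* (lower panel) in CPM in each of 96 libraries, by time point, with FA+XR, XR, FA and Cont from left to right. Points are libraries (open where a library had less than 50% of the median total or was low in neuron markers) and black bars are the mean and SD of 6 libraries. At 37 hpf the irradiated groups had *cdca7a* medians of 17.5 CPM (FA+XR) and 16.5 CPM (XR), against 40.4 CPM in FA and 36.4 CPM in Cont libraries, while the *cdca7b* groups overlapped.

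Over the time course, the median of *cdca7a* at 36, 37, 60 and 84 hpf was 47.7, 17.5, 26.6 and 22.5 CPM in FA+XR libraries. In XR libraries the medians were 43.5, 16.5, 31.9 and 25.1 CPM. In FA libraries they were 46.6, 40.4, 21.5 and 20.5 CPM, and in Cont libraries 56.4, 36.4, 28.8 and 22.2 CPM. The irradiated groups thus had their lowest median at 37 hpf and the unirradiated groups at 84 hpf. Between 37 and 36 hpf *cdca7a* fell by 1.56 (SE 0.22, edgeR adjusted p = 6.15e-07) on the log2 scale in FA+XR and by 1.63 (SE 0.22, edgeR adjusted p = 2.20e-07) in XR animals, and *cdca7b* fell by 0.65 and 0.60. In these comparisons 2 of 49 members were called in FA+XR and 2 in XR animals, where 0.879% and 1.2% of all genes were called. For *cdca7b* the difference in mean log2 CPM of XR vs. Cont was -0.172 at 36 hpf and -0.264 at 37 hpf. Cont libraries thus fell nearly as much as XR libraries. For FA+XR vs. FA the *cdca7b* difference was 0.285 at 36 hpf and -0.117 at 37 hpf. The difference of its change was not called in either background, so no response of *cdca7b* to X-rays is read from its falls.

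No member was called between 37 and 36 hpf in FA or Cont animals by edgeR, where 0.051% and 0% of all genes were called. At an unadjusted p below 0.05 there were 1 and 12 members, and DESeq2 also called 0 in each. The *cdca7a* value was -0.23 (SE 0.20) in FA and -0.62 (SE 0.21) in Cont animals. The test of the difference itself called *cdca7a* for FA+XR against FA (-1.33, SE 0.30, edgeR adjusted p = 0.0476) and not for XR against Cont (-1.01, SE 0.30, edgeR adjusted p = 0.356). In these 2 tests 0.0382% and 0.051% of all genes were called. The 37 hpf libraries enter both these changes and the comparisons at 37 hpf, so the values are not separate evidence.

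The remaining members at 37 hpf are given by role. All 6 tested subunits of the MCM helicase, which unwinds the DNA, had pooled log2 fold changes below 0, between -0.62 and -0.26 with a median of -0.37. None of the 6 was called, and 4 had an unadjusted p below 0.05. *mcm5* was measured at 4.11 to 40.1 CPM (median 34.4 CPM) in FA+XR and 23.3 to 44.3 CPM (median 29.9 CPM) in XR libraries, against 28.2 to 51.8 CPM (median 45.5 CPM) in FA and 39.6 to 69.4 CPM (median 49.5 CPM) in Cont libraries. The *mcm5* value of 4.11 CPM was from the FA+XR library with 243126 counts and rests on few reads. Each irradiated group lay below the median of its unirradiated counterpart in 6 of 6 libraries, with ranges that overlapped. The pooled log2 fold change of *mcm5* was -0.50 (SE 0.17) with an edgeR adjusted p of 0.658.

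The 6 genes of origin recognition also had pooled values below 0 at 37 hpf, with a median of -0.24, and the 3 licensing genes had a median of -0.20. Medians were nearer 0 for the 6 genes of helicase activation (-0.05), the 9 of polymerases and primase (-0.03), the 3 of RPA (-0.03), the 6 of the clamp and its loader (-0.03) and the 3 of the lagging strand (-0.10). None of these genes was called. Over all 49 members the pooled median was -0.12, with 37 below 0, against -0.01 over all genes tested.

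The ribonucleotide reductase subunit *rrm2*, which makes deoxyribonucleotides, had the largest positive pooled value at 37 hpf. Its ID ENSDARG00000020711 was measured at 36.0 to 213 CPM (median 192 CPM) in FA+XR and 42.8 to 208 CPM (median 165 CPM) in XR libraries, against 17.2 to 186 CPM (median 30.3 CPM) in FA and 35.6 to 175 CPM (median 64.98 CPM) in Cont libraries. All 4 ranges overlapped, since each group held libraries at both low and high levels. The pooled log2 fold change was 1.12 (SE 0.31, edgeR adjusted p = 0.234), outside the threshold. The other *rrm2* ID, ENSDARG00000078069, had medians of 182 CPM in FA+XR, 211 CPM in XR, 287 CPM in FA and 289 CPM in Cont libraries.

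Genes of neighbouring functions were read from lists chosen with the members. Of 36 tested IDs of other replication and S phase genes, 1 fell at 37 hpf in the pooled comparison, where 0.146% of all genes were called lower. It was *hells*, the remodeller that partners CDCA7 in mammals, at -0.91 (SE 0.20, edgeR adjusted p = 0.0237). The median of that list was -0.04. Of 24 tested IDs of mitosis genes, 7 fell and none rose, with a median of -0.49. They included *aurka*, a kinase of the spindle poles, at -1.17 (SE 0.17, edgeR adjusted p = 4.06e-05), the B-type cyclins *ccnb3* at -1.22 (SE 0.21, edgeR adjusted p = 0.000810) and *ccnb1* at -0.89 (SE 0.16, edgeR adjusted p = 0.00134), and *cdc20*, an activator of the anaphase-promoting complex, at -1.01 (SE 0.16, edgeR adjusted p = 0.000201). The summed level of the mitosis list was 781 to 856 CPM in FA+XR and 670 to 890 CPM in XR libraries, against 960 to 1121 CPM in FA and 919 to 1293 CPM in Cont libraries, so irradiated and unirradiated libraries did not overlap.

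At 24 h after exposure (60 hpf), no member was called in XR vs. Cont by edgeR or DESeq2, where 0.404% of all genes were called by edgeR, and 2 members had an unadjusted p below 0.05. In the pooled comparison, where 1.67% of all genes were called, edgeR called 0 members, DESeq2 called 1, and 6 had an unadjusted p below 0.05. FA+XR vs. FA called 1 member, *mcm5*, where 1.43% of all genes were called. *mcm5* was measured at 17.1, 21.8, 29.4, 29.5, 36.7 and 37.2 CPM in FA+XR libraries, against 6.18, 6.80, 7.81, 16.6, 19.9 and 23.1 CPM in FA libraries. XR libraries ran between 21.3 and 34.1 CPM (median 26.9 CPM) and Cont libraries between 25.5 and 33.1 CPM (median 28.2 CPM). The FA libraries were the low ones, and their range overlapped with that of FA+XR but not with that of Cont. These CPM values depend on the scaling. With library totals the median log2 fold change of all genes was 0.33 in FA+XR vs. FA and -0.36 in FA vs. Cont. With TMM it was 0.06 and -0.04.

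The log2 fold change of *mcm5* at 60 hpf was 0.77 (SE 0.22, edgeR adjusted p = 0.0977) for FA+XR vs. FA. In the 3 FA libraries low in neuron markers, at a summed level of 52.1 to 164 CPM, *mcm5* was 6.18 to 7.81 CPM. In the other 3 FA libraries, at 570 to 709 CPM of neuron markers, it was 16.6 to 23.1 CPM. Muscle markers were low in the same 3 libraries as well, at 7605 to 10306 CPM against 23271 to 27810 CPM. Without the 4 libraries low in neuron markers the *mcm5* value was 0.51 with an edgeR adjusted p of 0.753 and no member was called, in a fit with fewer libraries. The call was also lost at a threshold of 5%, with no filter on low counts, with only the compared libraries or without libraries of low depth, and with single libraries left out it was kept in 6 of 24 fits.

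**Figure D2:**
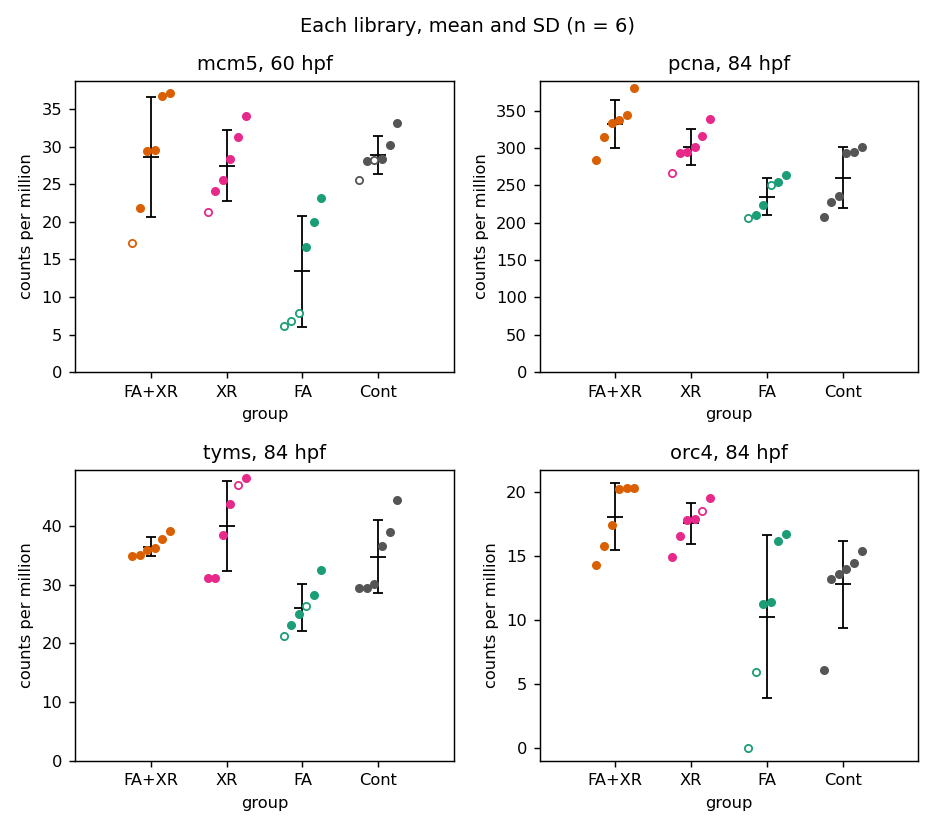
Levels in CPM of *mcm5* at 60 hpf and of *pcna*, *tyms* and *orc4* at 84 hpf, with FA+XR, XR, FA and Cont from left to right. Points are libraries (open where a library had less than 50% of the median total or was low in neuron markers) and black bars are the mean and SD of 6 libraries. The 3 lowest *mcm5* points of FA, at 6.18 to 7.81 CPM, are libraries low in neuron markers, and the FA+XR and FA libraries do not overlap in *pcna* or *tyms*.

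At 48 h after exposure (84 hpf), 3 members rose in the pooled comparison of irradiated with unirradiated animals, where 1.83% of all genes were called higher and 4.32% in either direction. They were *pcna*, *tyms* and *orc4*, and none fell. *pcna* encodes the sliding clamp that holds polymerases on the DNA, and in mammalian cells it is also a p53 target. It was measured at 284 to 381 CPM (median 336 CPM) in FA+XR and 267 to 339 CPM (median 298 CPM) in XR libraries, against 206 to 263 CPM (median 237 CPM) in FA and 208 to 302 CPM (median 265 CPM) in Cont libraries. FA+XR and FA did not overlap, XR and Cont did, and 12 of 12 irradiated libraries lay above the unirradiated median.

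The log2 fold change of *pcna* at 84 hpf was 0.61 (SE 0.13, edgeR adjusted p = 0.00579) for FA+XR vs. FA and 0.41 (SE 0.09, edgeR adjusted p = 0.00317) in the pooled comparison. Both calls were kept in 24 of 24 fits with a library left out. FA+XR vs. FA called 1 of 49 members, where 1.04% of all genes were called, and the exact permutation test gave p = 0.00216 for *pcna*. For XR vs. Cont the *pcna* value was 0.21 with an edgeR adjusted p of 0.689 and an exact permutation p of 0.0736, and no member was called by edgeR or DESeq2, where edgeR called 1.69% of all genes and 4 members had an unadjusted p below 0.05. The difference between these 2 effects was 0.40 (SE 0.18, edgeR adjusted p = 0.997), which is not a call.

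*tyms*, thymidylate synthase, which makes dTMP with a folate cofactor, was measured at 34.9 to 39.1 CPM (median 36.1 CPM) in FA+XR and 31.1 to 48.3 CPM (median 41.1 CPM) in XR libraries, against 21.3 to 32.5 CPM (median 25.7 CPM) in FA and 29.4 to 44.4 CPM (median 33.3 CPM) in Cont libraries. FA+XR and FA did not overlap, and FA held the lowest values. The pooled log2 fold change was 0.35 (SE 0.11, edgeR adjusted p = 0.0861). The call was kept in 9 of 24 fits with a library left out, and the adjusted p then ran between 0.0386 and 0.172. The call was also lost at a threshold of 5%, with library totals in place of TMM, without a filter on low counts, or without libraries of low depth.

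*orc4*, a subunit of the origin recognition complex, was measured at 14.3 to 20.3 CPM (median 18.8 CPM) in FA+XR and 14.9 to 19.5 CPM (median 17.9 CPM) in XR libraries, against 0 to 16.7 CPM (median 11.3 CPM) in FA and 6.07 to 15.4 CPM (median 13.8 CPM) in Cont libraries. The FA library at 0 held 423265 counts in all. All 12 irradiated libraries lay above the unirradiated median, and 8 above every unirradiated library. The pooled log2 fold change was 0.53 (SE 0.17, edgeR adjusted p = 0.0866), with the call kept in 8 of 24 fits with a library left out and lost at a threshold of 5% or with library totals. At 60 hpf the FA+XR range of 13.5 to 22.2 CPM lay above the FA range of 6.61 to 13.01 CPM, which holds the 3 libraries low in neuron markers. With library totals, the scaling of these CPM, the median of all genes in that comparison was 0.33, against 0.06 with TMM.

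Over all 49 members at 84 hpf the pooled median was 0.20, with 40 above 0, against 0.01 over all genes tested. By role it was 0.29 for the 9 genes of polymerases and primase, 0.25 for RPA, 0.23 for the lagging strand, 0.19 for origin recognition and 0.18 for the MCM helicase, with 1 called gene in the clamp and loader, 1 in nucleotide supply and 1 in origin recognition. Of 36 tested IDs of other replication genes at 60 hpf neither edgeR nor DESeq2 called any, where edgeR called 1.67% of all genes, with 1 at an unadjusted p below 0.05. At 84 hpf 1 of 37 rose by edgeR, where 1.83% of all genes were called higher, and DESeq2 called 2 higher. The edgeR call was *rnaseh2b*, a subunit of the RNase that removes ribonucleotides from DNA, at 0.41 (SE 0.12, edgeR adjusted p = 0.0511). Of 24 mitosis IDs none was called by edgeR in the pooled comparison at 60 or 84 hpf, where 1.67% and 4.32% of all genes were called. At an unadjusted p below 0.05 there were 1 and 5 mitosis IDs, and DESeq2 called 0 and 1. In FA+XR vs. FA at 84 hpf, where 1.04% of all genes were called, 1 mitosis ID rose, *cdk1*, the kinase of mitotic entry, at 0.48 (SE 0.13, edgeR adjusted p = 0.0830). Tissue markers moved in the pooled comparison at 84 hpf, where 1.83% of all genes were called higher and 2.49% lower. In it 2 of 5 epidermis and 4 of 5 muscle IDs rose, and 3 of 7 photoreceptor and 2 of 9 neuron IDs fell. Summed epidermis markers were 14518 to 17785 CPM in FA+XR and 13526 to 17088 CPM in XR libraries, against 11995 to 13244 CPM in FA and 10999 to 12752 CPM in Cont libraries. Summed photoreceptor markers had medians of 335 CPM in FA+XR and 340 CPM in XR libraries, against 574 CPM in FA and 807 CPM in Cont libraries. Summed neuron markers were 565 to 733 CPM in FA+XR and 619 to 829 CPM in XR libraries, against 743 to 945 CPM in FA and 777 to 949 CPM in Cont libraries, without overlap of FA+XR and FA. Summed muscle markers had medians of 24263 CPM in FA+XR and 27768 CPM in XR libraries, against 22560 CPM in FA and 22299 CPM in Cont libraries. The part of these shifts in the members' values was not tested.

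**Figure D3:**
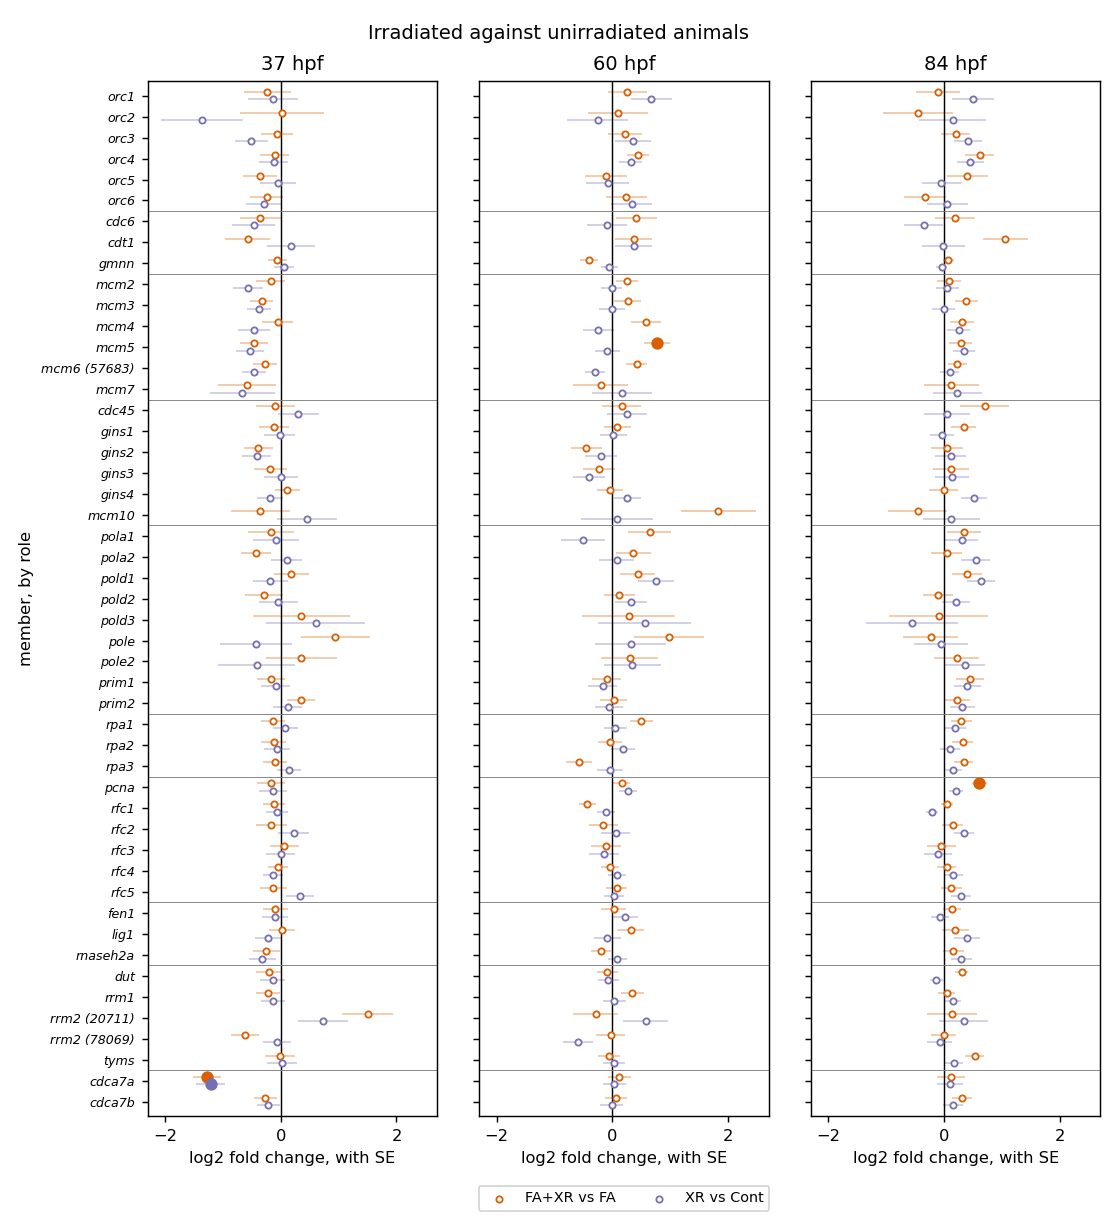
Log2 fold change with its SE of each of 49 members for FA+XR vs. FA and XR vs. Cont at 37, 60 and 84 hpf, grouped by role. Filled points were called at a false discovery rate of 10% by edgeR, namely *cdca7a* in both comparisons at 37 hpf (-1.28 and -1.21), *mcm5* at 60 hpf (0.77) and *pcna* at 84 hpf (0.61) in FA+XR vs. FA.

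At 36 hpf, the time of exposure, no member was called in FA+XR vs. FA or XR vs. Cont by edgeR, where 0% and 0.0207% of all genes were called, with 3 and 10 members at an unadjusted p below 0.05. DESeq2 called 0 members in FA+XR vs. FA and 1 in XR vs. Cont. The lowest adjusted p was that of *mcm4* in XR vs. Cont, at -0.70 (SE 0.17, edgeR adjusted p = 0.168). In CPM of the library total, the Cont libraries of 36 hpf were high in members. The size of this difference depended on the scaling. In XR vs. Cont the members' median log2 fold change was -0.32 with library totals and -0.14 with TMM. The median of all genes was -0.20 and -0.01. In FA vs. Cont the values were -0.36 and -0.21 for members, and -0.16 and -0.01 for all genes. *pcna* was measured at 480 to 856 CPM in FA+XR, 492 to 736 CPM in XR and 467 to 669 CPM in FA libraries, against 737 to 883 CPM in Cont libraries, so that neither XR nor FA overlapped with Cont. The median of summed erythrocyte markers was 13856 CPM in FA+XR, 12181 CPM in XR and 14171 CPM in FA libraries, against 6189 CPM in Cont libraries. The ranges overlapped, at 6152 to 16600 CPM in FA+XR, 6340 to 17749 CPM in XR, 6362 to 16742 CPM in FA and 5192 to 14460 CPM in Cont libraries. The median sum of members without *gmnn* was 3034 CPM in FA+XR, 2816 CPM in XR and 2796 CPM in FA libraries, against 3557 CPM in Cont libraries. These Cont libraries serve every comparison with Cont at 36 hpf and the change between 37 and 36 hpf in Cont. The part of the erythrocyte marker levels in their member values was not tested.

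Folic acid alone was compared in FA vs. Cont. edgeR called no member at 36, 37, 60 or 84 hpf, where 0.0138%, 0%, 1.45% and 0.0248% of all genes were called, and 9, 0, 7 and 3 members had an unadjusted p below 0.05. DESeq2 called *mcm5*, *gmnn* and *mcm6* at 60 hpf and 0 members at the other times, and it was not run without the libraries low in neuron markers. The share of all genes that DESeq2 called is not given here, so no excess of members is read from these calls. By edgeR at 60 hpf, 237 of all genes were called with TMM, 445 with RLE factors and 2 with library totals. The 3 smallest p-values at 60 hpf belonged to *mcm5* (-0.75, SE 0.23, edgeR adjusted p = 0.111), *gmnn* (0.51, SE 0.15, edgeR adjusted p = 0.112) and *mcm6* (-0.56, SE 0.18, edgeR adjusted p = 0.132). Without the 4 libraries low in neuron markers, 0 of all genes were called in this comparison, against 237 with them, in a fit with fewer FA libraries. In the same fit XR vs. Cont called 258 genes, against 66 with all libraries. The part of the smaller FA group in the loss of calls was not tested. At 84 hpf the smallest p-values belonged to *dut*, which breaks down dUTP, at -0.36 (SE 0.12), to *tyms* at -0.46 (SE 0.16) and to *pcna* at -0.26 (SE 0.12), each with an edgeR adjusted p of 0.933. At 36 hpf they belonged to *orc6* at -0.77 (SE 0.18), *pcna* at -0.39 (SE 0.11) and *mcm4* at -0.57 (SE 0.18), each with an edgeR adjusted p of 0.443. At 37 hpf they belonged to *pola2*, *rfc5* and *pold1*, at 0.46, 0.42 and -0.49, each with an edgeR adjusted p of 0.980.

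FA+XR vs. XR, which asks what folic acid did in irradiated animals, also called no member by edgeR at 36, 37, 60 or 84 hpf, where 0%, 0%, 0% and 0.0062% of all genes were called and 4, 0, 0 and 0 members had an unadjusted p below 0.05. DESeq2 called 0 at each time. The smallest p-values belonged to *orc1* at 36 hpf (0.70, SE 0.29), *pole* at 37 hpf (1.12, SE 0.62), *rfc4* at 60 hpf (-0.29, SE 0.15) and *pold1* at 84 hpf (-0.45, SE 0.25), each with an edgeR adjusted p of 0.999 or above. For *cdca7a* at 37 hpf the FA+XR and XR medians of 17.5 and 16.5 CPM differed by less than the spread within either group. For the interaction of folic acid and X-rays neither edgeR nor DESeq2 called a member, where edgeR called 0% of all genes at each time point, and 9, 0, 4 and 2 members had an unadjusted p below 0.05. Its smallest p-values belonged to *mcm4* at 36 hpf (0.88, SE 0.25), *rrm2* ENSDARG00000078069 at 37 hpf (-0.55, SE 0.34), *mcm6* at 60 hpf (0.72, SE 0.25) and *dut* at 84 hpf (0.44, SE 0.16). Of the 12 tested IDs of folate metabolism genes, edgeR called none in the pooled comparison of irradiated with unirradiated animals at 37, 60 or 84 hpf. There 0.25%, 1.67% and 4.32% of all genes were called. At an unadjusted p below 0.05 there were 1, 2 and 1 folate IDs, and DESeq2 called 0, 1 and 1.

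Most members changed with development between 37 and 60 hpf. At 60 hpf against 37 hpf, 38 of 49 members fell in FA+XR animals, 36 in XR, 42 in FA and 39 in Cont animals, where 14.4%, 15.8%, 13.7% and 14.3% of all genes were called lower. The median log2 fold changes were -0.94, -0.89, -1.29 and -1.03 in the same order of groups. Without the 4 libraries low in neuron markers the counts were 35, 35, 39 and 39. By role, that fit had 4 falls in FA among origin genes, 1 in FA+XR among licensing genes, 3 in FA+XR and 4 in FA among MCM genes, 4 in FA+XR, 3 in XR and 5 in FA among polymerase and primase genes, and 6 in FA among clamp and loader genes, and the other roles and groups had the counts given below. The 1 rise called with all libraries, where 17.9% of all genes were called higher, was that of *pole2*, a subunit of polymerase epsilon, in XR animals, at 1.31 (SE 0.52, edgeR adjusted p = 0.0507). It was not called at a threshold of 5% or without libraries of low depth. *cdca7a* was called higher in XR as well without the libraries low in neuron markers (0.48, edgeR adjusted p = 0.0889), with only the compared libraries, with RLE factors and by DESeq2. Tissue marker levels moved at the same time. In Cont animals 9 of 9 neuron marker IDs rose between 37 and 60 hpf, with a median of 2.61, where 16.5% of all genes were called higher. Median sums in Cont libraries also rose from 537 to 1348 CPM for neural progenitor markers and from 6590 to 22939 CPM for muscle markers. They fell from 20409 to 15321 CPM for epidermis markers and from 14260 to 11225 CPM for erythrocyte markers. The part of these shifts in the members' fall was not tested.

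The size of the developmental fall depended on the scaling. With library totals in place of TMM factors, 27 members fell in FA+XR, 16 in XR, 39 in FA and 28 in Cont animals, while *cdca7a* rose in FA+XR and *cdca7a*, *orc1*, *orc2* and *pole2* rose in XR animals. In the same order of groups, 6624, 7497, 5229 and 6041 of all 15699 genes tested were then called in either direction. That scaling put the median of all genes at 0.51 in Cont animals, against 0.08 with TMM, and the members' median relative to all genes was -1.14 with library totals and -1.11 with TMM. Values near 0 changed sign, as in Cont *orc2* at 0.40 in place of -0.06 and *pola1* at 0.36 in place of -0.14. Among the members that lost their calls in Cont animals were *gmnn*, *rfc1* and *cdca7a*, at -0.07, -0.10 and -0.36. In XR animals *mcm2* and *rfc4* lost their calls and their sign turned.

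**Figure D4:**
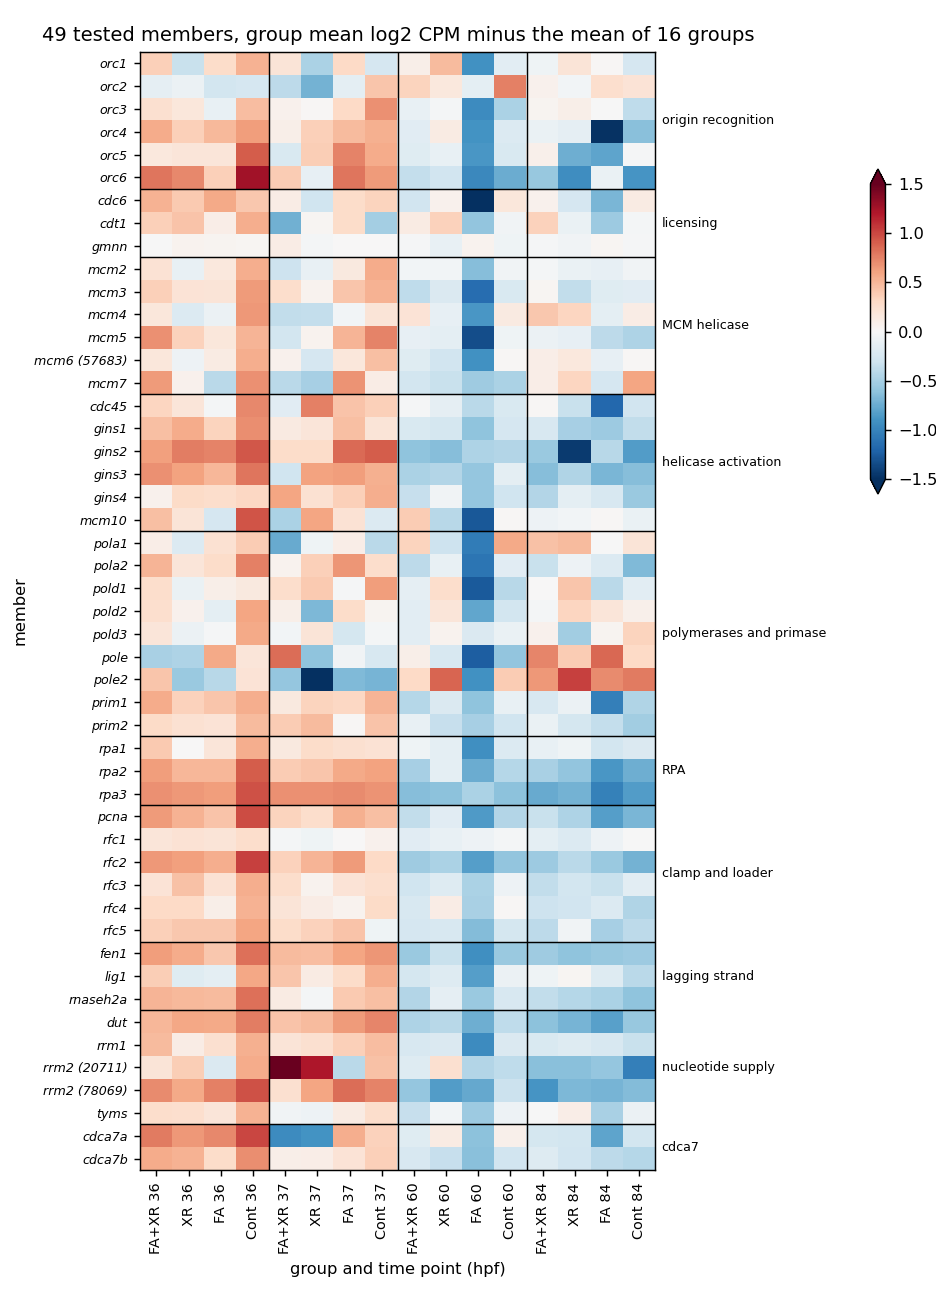
Heat map of 49 tested members (rows, by role) in 16 groups (columns, by time point in hpf, with FA+XR, XR, FA and Cont from left to right in each). Color gives the mean log2 CPM of 6 libraries minus the mean over the 16 groups. Most rows are high at 36 and 37 hpf and low at 60 and 84 hpf, the *cdca7a* row is low in FA+XR and XR already at 37 hpf, and the FA column at 60 hpf, which holds the 3 libraries low in neuron markers, is the lowest of its time point in most rows. The levels drawn are CPM of the library total. With that scaling FA vs. Cont at 60 hpf had medians of -0.42 for members and -0.36 for all genes. With TMM they were -0.07 and -0.04.

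Among genes of origin recognition, 4 of 6 fell between 37 and 60 hpf in FA+XR animals, 4 in XR, 5 in FA and 4 in Cont animals. *orc6* fell by 1.46 on the log2 scale in FA+XR, by 1.16 in XR, by 1.96 in FA and by 1.72 in Cont animals, with an edgeR adjusted p of at most 0.00161. *orc1* encodes the largest subunit of the complex. Its medians at 36, 37, 60 and 84 hpf were 7.32, 5.70, 6.85 and 5.73 CPM in FA+XR, 3.9998, 3.94, 7.36 and 6.11 CPM in XR, 6.67, 6.63, 3.89 and 5.14 CPM in FA and 8.66, 4.33, 4.82 and 4.36 CPM in Cont libraries. It fell in FA animals at -0.93 (SE 0.33, edgeR adjusted p = 0.0299) and was not called in the other groups. Without the libraries low in neuron markers *orc1* in FA was at -0.63 with an edgeR adjusted p of 0.222, outside the threshold, while *orc6* kept its call in all 4 groups.

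Of the 3 licensing genes, edgeR called 2 lower in FA+XR (*cdc6* and *gmnn*), 1 in XR (*gmnn*), 2 in FA (*cdc6* and *cdt1*) and 1 in Cont animals (*gmnn*), so that without *gmnn* none was called in XR or Cont. Without the libraries low in neuron markers *cdc6* in FA+XR (edgeR adjusted p = 0.108) and *cdt1* in FA (edgeR adjusted p = 0.154) lost their calls, and *gmnn* was called lower in FA (-0.33, edgeR adjusted p = 0.0733). *cdc6*, which loads the helicase, had medians at 36, 37, 60 and 84 hpf of 9.66, 6.19, 5.81 and 7.34 CPM in FA+XR, 8.09, 4.66, 6.36 and 6.53 CPM in XR, 10.8, 7.197, 2.49 and 4.96 CPM in FA and 7.44, 8.52, 6.96 and 7.60 CPM in Cont libraries. *gmnn*, the geminin gene, made up 58.1% of the members' summed mean CPM, and the members' sums are given without it. Its medians lay between 2825 and 3323 CPM in all 16 groups. Its call as lower in Cont animals at 60 hpf (-0.47, SE 0.12, edgeR adjusted p = 0.00231) was not kept with library totals, so no change of *gmnn* is read from it.

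Of the MCM helicase, 4 of 6 subunits fell in FA+XR, 4 in XR, 6 in FA and 5 in Cont animals. *mcm5* fell by 0.67 in FA+XR, by 0.78 in XR, by 1.90 in FA and by 1.19 in Cont animals. The difference of this change for FA+XR against FA was 1.23 (SE 0.30, edgeR adjusted p = 0.0648), and it was 0.98 with an edgeR adjusted p of 0.737 without the 4 libraries low in neuron markers. Medians of *mcm5* at 36, 37, 60 and 84 hpf were 47.6, 34.4, 29.5 and 28.1 CPM in FA+XR, 39.7, 29.9, 26.9 and 28.6 CPM in XR, 31.4, 45.5, 12.2 and 25.3 CPM in FA and 45.3, 49.5, 28.2 and 21.6 CPM in Cont libraries.

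Among the 6 genes of helicase activation, 5 fell in FA+XR, 5 in XR, 6 in FA and 5 in Cont animals. *gins2*, a subunit of the GINS complex, had the largest fall of any member in Cont animals, at -1.77 (SE 0.26, edgeR adjusted p = 3.84e-08), followed by *orc6* at -1.72 (SE 0.31) and *rpa3* at -1.69 (SE 0.20). *cdc45*, which travels with the helicase, had medians at 36, 37, 60 and 84 hpf of 7.65, 7.61, 5.73 and 5.94 CPM in FA+XR, 6.10, 10.7, 4.33 and 3.67 CPM in XR, 6.76, 9.25, 4.33 and 3.07 CPM in FA and 9.97, 8.03, 4.75 and 4.47 CPM in Cont libraries. It fell between 37 and 60 hpf in all 4 groups.

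Of the 9 polymerase and primase genes, 5 fell in FA+XR, 4 in XR, 6 in FA and 5 in Cont animals. *pola1*, the catalytic subunit of polymerase alpha, had medians at 36, 37, 60 and 84 hpf of 9.80, 6.16, 10.2 and 11.3 CPM in FA+XR, 8.40, 8.63, 9.64 and 12.6 CPM in XR, 9.79, 9.20, 4.93 and 8.70 CPM in FA and 10.1, 9.90, 12.2 and 9.50 CPM in Cont libraries. The medians of *pole2* were 4.71, 2.01, 4.51 and 4.74 CPM in FA+XR, 1.47, 0.658, 4.90 and 5.72 CPM in XR, 2.49, 1.68, 1.77 and 3.80 CPM in FA and 3.61, 1.96, 4.01 and 5.11 CPM in Cont libraries. At 37 hpf it had no counts in 1 FA+XR, 2 XR and 1 Cont libraries, so its values rest on few reads.

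All 3 subunits of RPA, which coats single-stranded DNA, fell in every group. *rpa2* medians at 36, 37, 60 and 84 hpf were 84.5, 82.8, 37.6 and 38.6 CPM in FA+XR, 67.9, 72.3, 47.3 and 34.4 CPM in XR, 74.7, 80.7, 30.9 and 29.5 CPM in FA and 104, 78.7, 40.3 and 32.6 CPM in Cont libraries. *rpa3* fell by 1.90 (SE 0.20, edgeR adjusted p = 2.69e-13) on the log2 scale in XR animals. Of the clamp and its loader, 6 of 6 genes fell in FA+XR, 6 in XR, 5 in FA and 6 in Cont animals. *pcna* medians were 652, 586, 341 and 336 CPM in FA+XR, 599, 517, 357 and 298 CPM in XR, 562, 608, 239 and 237 CPM in FA and 852, 547, 301 and 265 CPM in Cont libraries. *rfc4*, a subunit of the loader, had medians of 53.4, 43.6, 35.3 and 34.5 CPM in FA+XR, 54.2, 46.4, 44.9 and 34.7 CPM in XR, 43.1, 43.7, 31.4 and 37.5 CPM in FA and 62.9, 51.4, 40.6 and 29.7 CPM in Cont libraries.

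The 3 genes of the lagging strand also fell in every group. *fen1*, the flap endonuclease, fell by 1.63 (SE 0.20) in Cont animals, and the DNA ligase gene *lig1* had medians at 36, 37, 60 and 84 hpf of 25.3, 26.1, 16.04 and 18.5 CPM in FA+XR, 16.8, 18.99, 16.9 and 17.3 CPM in XR, 15.5, 22.2, 11.8 and 17.8 CPM in FA and 27.2, 29.4, 16.4 and 15.3 CPM in Cont libraries. Of the genes of nucleotide supply, 5 of 5 fell in FA+XR, 5 in XR, 4 in FA and 5 in Cont animals. The *rrm2* ID ENSDARG00000078069 had the largest fall in XR animals, at -1.95 (SE 0.26, edgeR adjusted p = 1.07e-09), and its medians at the 4 time points were 284, 182, 117 and 92.6 CPM in FA+XR, 242, 211, 83.4 and 99.8 CPM in XR, 270, 287, 89.4 and 96.2 CPM in FA and 306, 289, 149 and 117 CPM in Cont libraries. *tyms* had medians of 44.4, 41.2, 29.99 and 36.1 CPM in FA+XR, 44.1, 46.995, 35.4 and 41.1 CPM in XR, 40.3, 40.6, 26.6 and 25.7 CPM in FA and 54.2, 43.03, 35.2 and 33.3 CPM in Cont libraries.

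Of the *cdca7* pair between 37 and 60 hpf, *cdca7b* fell in all 4 groups, by 0.73 in FA+XR, by 0.89 in XR, by 1.07 in FA and by 1.07 in Cont animals. *cdca7a* fell by 1.36 in FA and by 0.79 in Cont animals, while its values in FA+XR (0.04, SE 0.22) and XR animals (0.43, SE 0.22, edgeR adjusted p = 0.148) were not called. The XR value was called as higher in the fits named above, among them the fit without libraries low in neuron markers. The difference of this change was 1.40 (SE 0.30, edgeR adjusted p = 0.0173) for FA+XR against FA, where 0.127% of all genes were called, and 1.22 (SE 0.31, edgeR adjusted p = 0.151) for XR against Cont, where 0.0828% were. Without the 4 libraries low in neuron markers the first was 1.30 with an edgeR adjusted p of 0.178, outside the threshold.

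**Figure D5:**
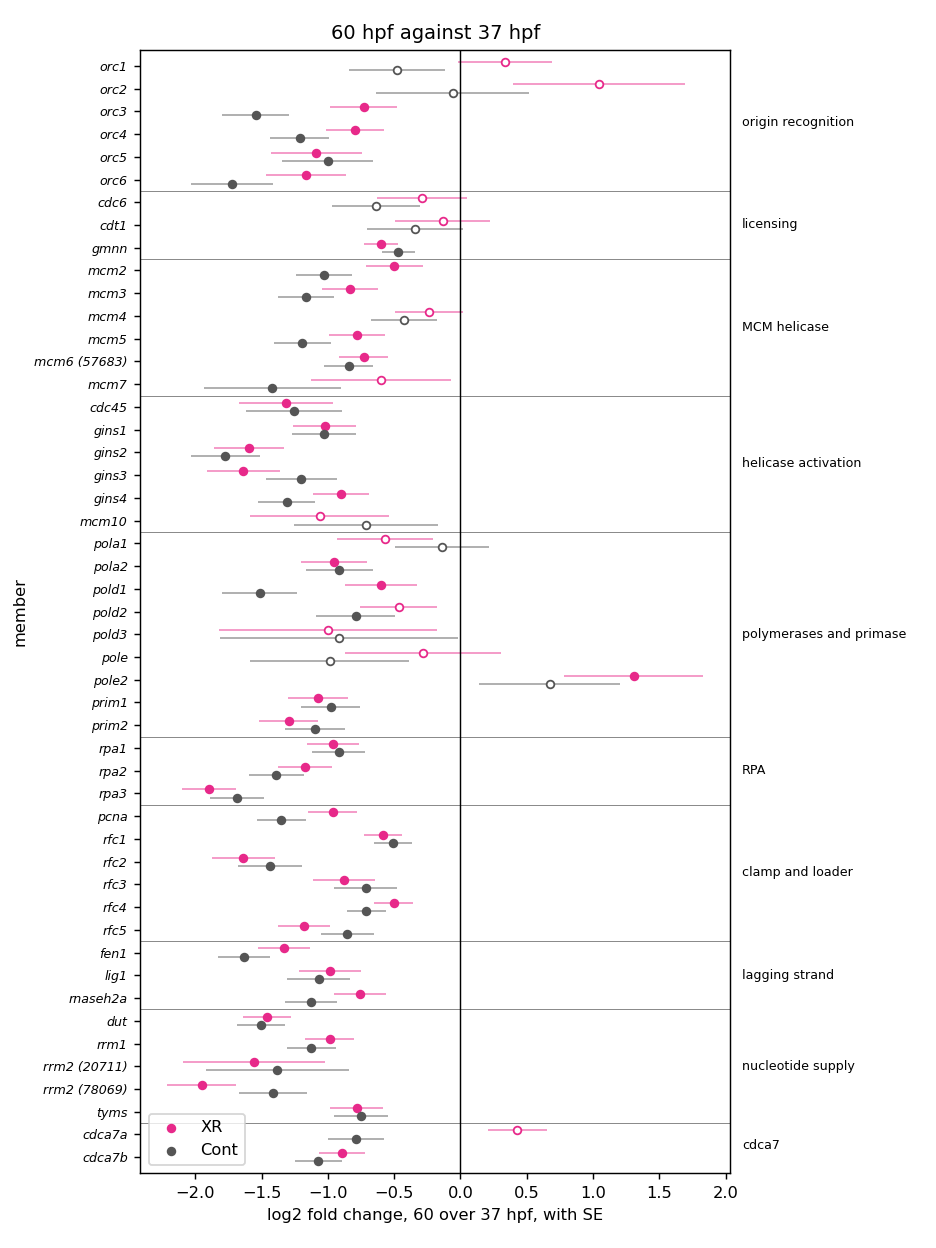
Log2 fold change with its SE of each of 49 members at 60 hpf against 37 hpf in XR and Cont animals, grouped by role, filled where called at a false discovery rate of 10% by edgeR. Nearly all points lie left of 0, with medians of -0.89 in XR and -1.03 in Cont animals. *cdca7a* lies at 0.43 in XR and -0.79 in Cont animals, and *pole2* is right of 0 in both.

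Between 37 and 60 hpf in Cont animals, 14.3% of all genes were called lower and 16.5% higher. Of the other replication genes, 23 of 37 tested IDs fell and 1, *dbf4*, the activator of a kinase that fires origins, rose at 0.64 (SE 0.29, edgeR adjusted p = 0.0977). The calls with the smallest p-values included *slbp*, which binds histone mRNA (-1.52, SE 0.17), *nasp*, a histone chaperone (-1.17, SE 0.14), and *dtymk*, thymidylate kinase (-1.62, SE 0.24). Of 24 mitosis IDs 13 fell, and of 12 folate IDs 6 fell and 1 rose, among them *dhfr*, which regenerates tetrahydrofolate for *tyms*, at -1.51 (SE 0.24, edgeR adjusted p = 1.83e-07).

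After 60 hpf few members were called. At 84 hpf against 60 hpf, edgeR called 0 members in FA+XR, 1 in XR, 7 in FA and 1 in Cont animals, where 4.83%, 4.33%, 16.7% and 7.2% of all genes were called. DESeq2 also called 0 in FA+XR animals, and 0 had an unadjusted p below 0.05. In XR, FA and Cont animals 6, 10 and 10 members had an unadjusted p below 0.05. Members below 0 numbered 33 of 49 in FA+XR, 31 in XR, 28 in FA and 42 in Cont animals. Their medians were -0.11, -0.09, -0.24 and -0.21 in that order, against -0.03, -0.02, 0.05 and -0.01 over all genes tested. The member called in XR and in Cont was *rfc4*, at -0.47 (edgeR adjusted p = 0.0590) and -0.52 (edgeR adjusted p = 0.0151). In XR the call was lost at a threshold of 5%, by DESeq2, with RLE factors, library totals or no filter on low counts, and without libraries of low depth, and in Cont with library totals (edgeR adjusted p = 0.104). In FA animals 5 fell and 2 rose, but without the 4 libraries low in neuron markers 0 were called, so no change in FA is read from them. With library totals the FA median of -0.24 became 0.27. The summed level of the members without *gmnn* had medians at 36, 37, 60 and 84 hpf of 3034, 2787, 1738 and 1688 CPM in FA+XR, 2816, 2685, 1783 and 1671 CPM in XR, 2796, 2864, 1427 and 1531 CPM in FA and 3557, 2924, 1754 and 1583 CPM in Cont libraries.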

How the data were processed

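Libraries were made from single larvae, read paired-end and, per the labels and the study's methods, quantified by the authors on the Ensembl transcripts of GRCz11, as estimated counts per gene without normalization. The quantifier was not given in the sources used here. Deposited estimated counts were rounded to whole numbers, which changed 3 values. Genes with a mean of at least 2.5 counts were tested with edgeR 4.0.16 (R 4.3.3, limma 3.58.1; TMM, quasi-likelihood test, Benjamini-Hochberg adjustment, 10% threshold) over the 24 libraries of a time point, and over all 96 libraries for developmental contrasts. DESeq2 1.42.0 was an alternative. Shares of all genes called are those of edgeR, and no share is given beside counts of members called by DESeq2. Levels are CPM of the library total, on the log2 scale with a prior count of 2. Exact permutation tests of 6 against 6 libraries reach p = 0.00216 at the lowest. The edgeR test of XR vs. Cont at the time points after exposure was tried on simulated data. The other contrasts, DESeq2 and the exact permutation tests were not.

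The members, gene lists and tests were chosen with earlier results of these data known. Genes named were members called after irradiation, 1 gene per role, the members of smallest p in folic acid contrasts, the largest and smallest developmental changes, and the list genes of smallest p. Values added after the data were seen were the scaling by library totals, the fits without libraries low in neuron markers, and the differences of the 37 over 36 hpf change in both backgrounds and of the 60 over 37 hpf change for FA+XR against FA. The planned promoter motif search was not run, since no sequence was used here.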

Additional observations from a re-analysis of the deposited data

Results flagged for a closer look

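In each group of 6 libraries, a library was singled out where its log2 CPM lay far from the other 5, by Dixon's criterion, which chance alone meets in about 1 in 20 groups. Of 112 sets screened, 16 met it, 12 of them in libraries with less than 50% of the median total. In the FA+XR library of 37 hpf with 243126 counts, *cdca7a*, *orc4* and *mcm5* were each at 2.21, against 3.92 to 4.54, 4.54 to 5.04 and 4.99 to 5.34 in the other 5 libraries. Each was at 4.11 CPM in that library, a value that rests on few reads. In the same library *tyms* was at 3.68, against 5.27 to 5.65, and the mean log2 CPM of the members was 3.61, against 4.48 to 4.86. In the FA library of 84 hpf with 423265 counts *cdca7a* was at 1.52, against 4.06 to 5.09, *orc4* was at -1.01, against 2.67 to 4.105, and the members' mean was 3.52, against 4.0002 to 4.28. In the XR library of 84 hpf with 700645 counts *cdca7a* was at 3.57, against 4.49 to 5.01, and the members' mean was 3.98, against 4.26 to 4.35. In the XR library of 37 hpf with 581706 counts *tyms* was at 3.18, against 5.09 to 5.73.

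A Cont library of 60 hpf with 1100461 counts had a members' mean of 4.41, against 4.21 to 4.25. The other 4 sets were in deeper libraries. The *orc4* level was 2.71 in a Cont library of 84 hpf, against 3.78 to 3.99. *mcm5* was at 5.20 in an FA+XR library of 84 hpf, against 4.66 to 4.85, and at 4.84 in an FA library of 37 hpf, against 5.41 to 5.71. An FA+XR library of 60 hpf had a members' mean of 3.99, against 4.26 to 4.38. It held 3559535 counts and was the FA+XR library low in neuron markers, at a summed level of 227 CPM. Whether depth or the animal set these values apart was not tested.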

How the results depend on the processing

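The alternatives were DESeq2, RLE factors, library totals, other filters on low counts, a 5% threshold, only the compared libraries, and fits without libraries of low depth or low in neuron markers. Under these, the called members that changed sign were *mcm2* and *rfc4* at 60 over 37 hpf in XR with library totals, where neither was called. Counts of members called that moved by more than 1.5 times are given by comparison, without the differences of change added after the data were seen. For these, members called lower at 37 over 36 hpf ran from 0 to 1 for XR against Cont. They were 1 in every setting for FA+XR against FA. At 60 over 37 hpf, FA+XR against FA, 2 were called higher with all libraries and 0 without libraries low in neuron markers. At 37 over 36 hpf in FA+XR 1 was called with library totals, only the compared libraries, or without low depth. In XR it was 1 at 5%, without a filter, with only the compared libraries or without low depth, and 4 by DESeq2. At 60 over 37 hpf in XR it was 20 of 49 with library totals, where 7497 of all 15699 genes tested were called. At 84 over 60 hpf it was 2 by DESeq2, 0 with library totals and 6 without low depth in Cont, 16 with library totals and 0 without low neuron markers in FA, and 0 at 5%, by DESeq2, with RLE factors, library totals or no filter and 3 with only the compared libraries in XR. In FA vs. Cont it was 2 at 36 hpf with library totals and, at 60 hpf, 3 by DESeq2, 2 with RLE factors and 3 with filterByExpr. In FA+XR vs. Cont it was 1 at 37 hpf by DESeq2, with RLE factors, library totals, no filter, filterByExpr or without low depth, and 1 at 84 hpf by DESeq2, with library totals or without low depth. In FA+XR vs. FA it was 2 at 37 hpf with no filter, and at 60 hpf 0 at 5%, with no filter, only the compared libraries or without low neuron markers, 4 by DESeq2, 2 with RLE factors and 2 with library totals. In XR vs. Cont at 36 hpf it was 1 by DESeq2, with library totals or no filter. For the difference of the 60 over 37 hpf change, XR against Cont, it was 1 by DESeq2, with RLE factors, library totals or without low depth. In the pooled comparison it was 2 at 37 hpf with no filter, 1 by DESeq2, 2 with library totals and 1 without low depth at 60 hpf, and 1 at 5% or with library totals at 84 hpf. With each of 72 libraries of 37, 60 and 84 hpf left out in turn, counts ran over 0 to 4 for FA vs. Cont at 60 hpf, 0 to 1 for FA+XR vs. Cont at 37 hpf, 1 to 2 and 0 to 3 for FA+XR vs. FA at 37 and 60 hpf, 0 to 1 for XR vs. Cont at 37 hpf, and 1 to 2 and 1 to 4 for the pooled comparison at 37 and 84 hpf. The cause of these moves was not tested. Calls over all genes moved as well. At 84 over 60 hpf library totals called 1213 genes in Cont, 5066 in FA and 756 in XR. At 60 hpf they called 2 in FA vs. Cont and 192 in FA+XR vs. FA, against 445 and 405 with RLE factors. Without low neuron markers 756 were called in FA at 84 over 60 hpf and 62 in FA+XR vs. FA at 60 hpf. Calls over all genes in the remaining settings are not given here. No paired analysis was possible because the table's columns carry no replicate number.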
